A study of Homo sapiens with 6 samples.

Results

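The genes described are 35 genes of glycolysis, of glucose and lactate transport and of the transcriptional response to low oxygen, chosen by name. All 35 were found in the tables, and 34 reached 1 FPKM (fragments scaled to transcript length and library size) in at least 1 library, among 12337 such genes of 23844 in all. Only EGLN3 did not. BNIP3, SLC16A3 and ADM reached 1 FPKM only in libraries labelled parental, so they had to stand lower elsewhere.

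The series holds 6 polyA RNA libraries, 1 per group. The lines were DAUDI, from Burkitt lymphoma, and DOHH2, from follicular lymphoma, each grown as idelalisib-resistant cells, as ibrutinib-resistant cells and as cells labelled WT, called labelled parental here. Idelalisib inhibits the delta catalytic subunit of PI3K and ibrutinib inhibits BTK, both kinases that act below the B cell receptor. The labels give no dose, no duration of selection and no clone number, and nothing says that the cultures were grown side by side.

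Each library labelled parental resembled the other one and not the resistant cells of its own line, so every statement on them concerns the library so labelled and not a change within a line. Across the 34 genes Pearson's r was 0.992 between the libraries labelled parental of DAUDI and DOHH2, and 0.839 and 0.846 for DAUDI with idelalisib and ibrutinib resistance against the one labelled parental. Between both resistant DAUDI libraries r was 0.991, and between both resistant DOHH2 libraries 0.978. These values describe genes, which are not independent samples. Both resistant libraries of a line are set against the same library labelled parental, so their differences from it are not independent of each other. All 10 B cell markers were at 1 FPKM or more in every library, with a summed level of 1262 to 1989 FPKM. T and NK cell markers summed to 1.45 to 7.64 FPKM. Erythroid markers summed to 7.51 FPKM in the DOHH2 library labelled parental, against 0 to 0.145 FPKM in the other 5 libraries. Stromal and epithelial markers summed to 0.347 to 7.34 FPKM in resistant libraries and to 27.6 and 28.3 FPKM in the DAUDI and DOHH2 libraries labelled parental, nearly all of it CDH1. Myeloid markers summed to 26.1 to 29.3 FPKM in resistant libraries and to 0.222 and 2.22 FPKM in those labelled parental, mostly CD33 and LYZ, while 2 to 7 of the 10 listed were at 0. The part of these markers in the differences below was not tested.

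Glycolysis splits glucose into pyruvate in the cytosol and gains ATP on the way. Most of its steps can be run by several isozymes from different genes, and lactate dehydrogenase and the monocarboxylate transporters dispose of the pyruvate as lactate. At low oxygen the prolyl hydroxylases EGLN1 to EGLN3 no longer mark HIF alpha subunits for destruction, and HIF then binds promoters of glycolytic genes, of the mitophagy gene BNIP3 and of VEGFA. B cells raise glucose use through PI3K signalling when their receptor is engaged.

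HIF binds a short core, ACGTG or GCGTG, on either strand. In windows from RefSeq of build GRCh38.p14 that run from 250 bases before to 50 bases after a start, a core was present in 39 of the 58 windows of 30 matched genes (67.2%), against 60.8% of the windows of all genes at 1 FPKM or more and 48.4% of all 35116 windows. Median GC content was 69.3%, 64.3% and 58.7% in these 3 sets, and the part of GC content in the shares was not tested. By gene, at least 1 window held a core in 28 of the 30 (93.3%), against 70.6% of genes at 1 FPKM or more. Genes with more windows have more chances to hold a core, and the part of this was not tested. The stretch of 250 bases before the start is given below for genes picked from those with 1 window each. ALDOC and PFKFB4 differed most between both resistant DOHH2 libraries. BNIP3 and ANKRD37 stood among the furthest below the libraries labelled parental. SLC16A3, PFKP in DAUDI and HK1 in idelalisib-resistant DAUDI stood further below than ANKRD37, but have several windows and are not shown. NDRG1 in resistant DOHH2 also stood further below and has no window. So did ALDOC in idelalisib-resistant DOHH2, which is shown. The stretches are written in the direction of the gene, with cores in capitals on either strand. A core on the opposite strand reads CACGT or CACGC. The run CACGTG holds ACGTG on both strands, overlapping, and counts as 2 cores.
ALDOC, chr17:28576896-28577145, minus strand: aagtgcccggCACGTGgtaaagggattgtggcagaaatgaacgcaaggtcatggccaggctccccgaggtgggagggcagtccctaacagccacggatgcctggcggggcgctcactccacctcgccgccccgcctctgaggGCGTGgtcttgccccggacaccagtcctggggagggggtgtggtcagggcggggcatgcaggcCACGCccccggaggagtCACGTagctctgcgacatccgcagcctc
PFKFB4, chr3:48556804-48557053, minus strand: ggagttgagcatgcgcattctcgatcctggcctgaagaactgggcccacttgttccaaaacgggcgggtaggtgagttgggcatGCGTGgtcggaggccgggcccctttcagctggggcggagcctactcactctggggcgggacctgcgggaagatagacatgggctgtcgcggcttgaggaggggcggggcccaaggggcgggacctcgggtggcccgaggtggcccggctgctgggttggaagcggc
BNIP3, chr10:131981924-131982173, minus strand: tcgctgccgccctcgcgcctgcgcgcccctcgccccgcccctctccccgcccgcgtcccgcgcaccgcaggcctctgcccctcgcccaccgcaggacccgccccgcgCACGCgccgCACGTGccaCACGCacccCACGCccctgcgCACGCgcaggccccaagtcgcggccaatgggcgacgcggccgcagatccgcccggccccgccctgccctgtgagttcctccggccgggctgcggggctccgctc
ANKRD37, chr4:185396591-185396840, plus strand: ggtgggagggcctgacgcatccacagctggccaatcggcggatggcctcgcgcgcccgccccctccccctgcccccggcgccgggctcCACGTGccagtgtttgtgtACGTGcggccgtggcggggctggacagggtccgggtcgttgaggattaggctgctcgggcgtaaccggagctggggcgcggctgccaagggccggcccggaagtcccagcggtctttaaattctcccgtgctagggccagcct
The ALDOC stretch held 5 cores, that of PFKFB4 1, that of BNIP3 6, in 5 runs close together, and that of ANKRD37 3. Among all windows of the members 15.5% held 3 or more cores, against 14.7% of the windows of all genes at 1 FPKM or more. A match is a description of letters and not a bound site.

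Most of the 34 genes stood lower in the resistant libraries than in the libraries labelled parental, and the glycolytic chain did so along nearly its whole length. A gene is counted where log2(FPKM + 1) differs by 1 or more, with no test, since each group is 1 library. With idelalisib resistance 16 members were lower and 2 higher in DAUDI, against 15.8% lower and 15.3% higher of all 12337 genes, and 23 were lower and 1 higher in DOHH2, against 15.7% lower and 16% higher of all genes. With ibrutinib resistance 13 were lower and 1 higher in DAUDI, against 14.6% and 20.2% of all genes, and 17 were lower and 1 higher in DOHH2, against 15.7% and 14.9%. The median over the 34 members was -0.98 and -0.84 with idelalisib and ibrutinib resistance in DAUDI and -1.29 and -0.96 in DOHH2, where the medians of all genes were 0.05, 0.18, 0.08 and 0.03 in the same order. Among the 31 members at 1 FPKM or more in a resistant library, 14, 11, 20 and 14 were lower in that order. In bulk RNA, fewer cells of a type and less RNA per cell cannot be told apart.

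All 4 resistant libraries lay below both libraries labelled parental in 22 of the 34 members, against 25.5% of all genes, and above both in 2, against 33.3% of all genes. Without SLC16A3, BNIP3 and ADM, which the filter on low values kept only through the libraries labelled parental, it was 19 of 31. The 2 above were PFKM and SLC16A1. A group of 9 members was counted as lower in each of the 4 comparisons, namely HK2, GPI, PFKP, PFKFB3, TPI1, PGK1, SLC16A3, BNIP3 and ANKRD37, or 7 without SLC16A3 and BNIP3. None of the 4 comparisons counted PFKL, ALDOA, GAPDH, LDHB, SLC2A1, PDK1, PDK3 or HIF1A. The shares of all genes lower in each of the 4 comparisons, or counted in none, were not computed. These groups are therefore lists of names and not a trait of the members.

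For both lines together, limma was run on log2(FPKM + 1) with Benjamini-Hochberg adjustment over 12337 genes, taking the lines as repeats of a state. With idelalisib resistance 15 members were lower and 1 higher at an adjusted p under 0.05, against 10.4% and 9.19% of all genes. With ibrutinib resistance 10 were lower and 0 higher, against 9.67% and 9.99%. Without the same 3 genes, 12 of 31 members were lower with idelalisib and 7 of 31 with ibrutinib resistance in this fit. At an unadjusted p under 0.05 in limma, 2 members were higher and 16 lower with ibrutinib resistance. Of all 12337 genes 4698 were at such a p, in either direction. Leaving out any of the 4 resistant libraries ended every one of these calls, for all genes as for members, with 1 residual degree of freedom left. Leaving out a library labelled parental, which also left 1 residual degree of freedom, did not end all of these calls. Nothing says that the libraries come from separate cultures of a state, so the p-values measure only the spread between these libraries.

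**Figure D1:**
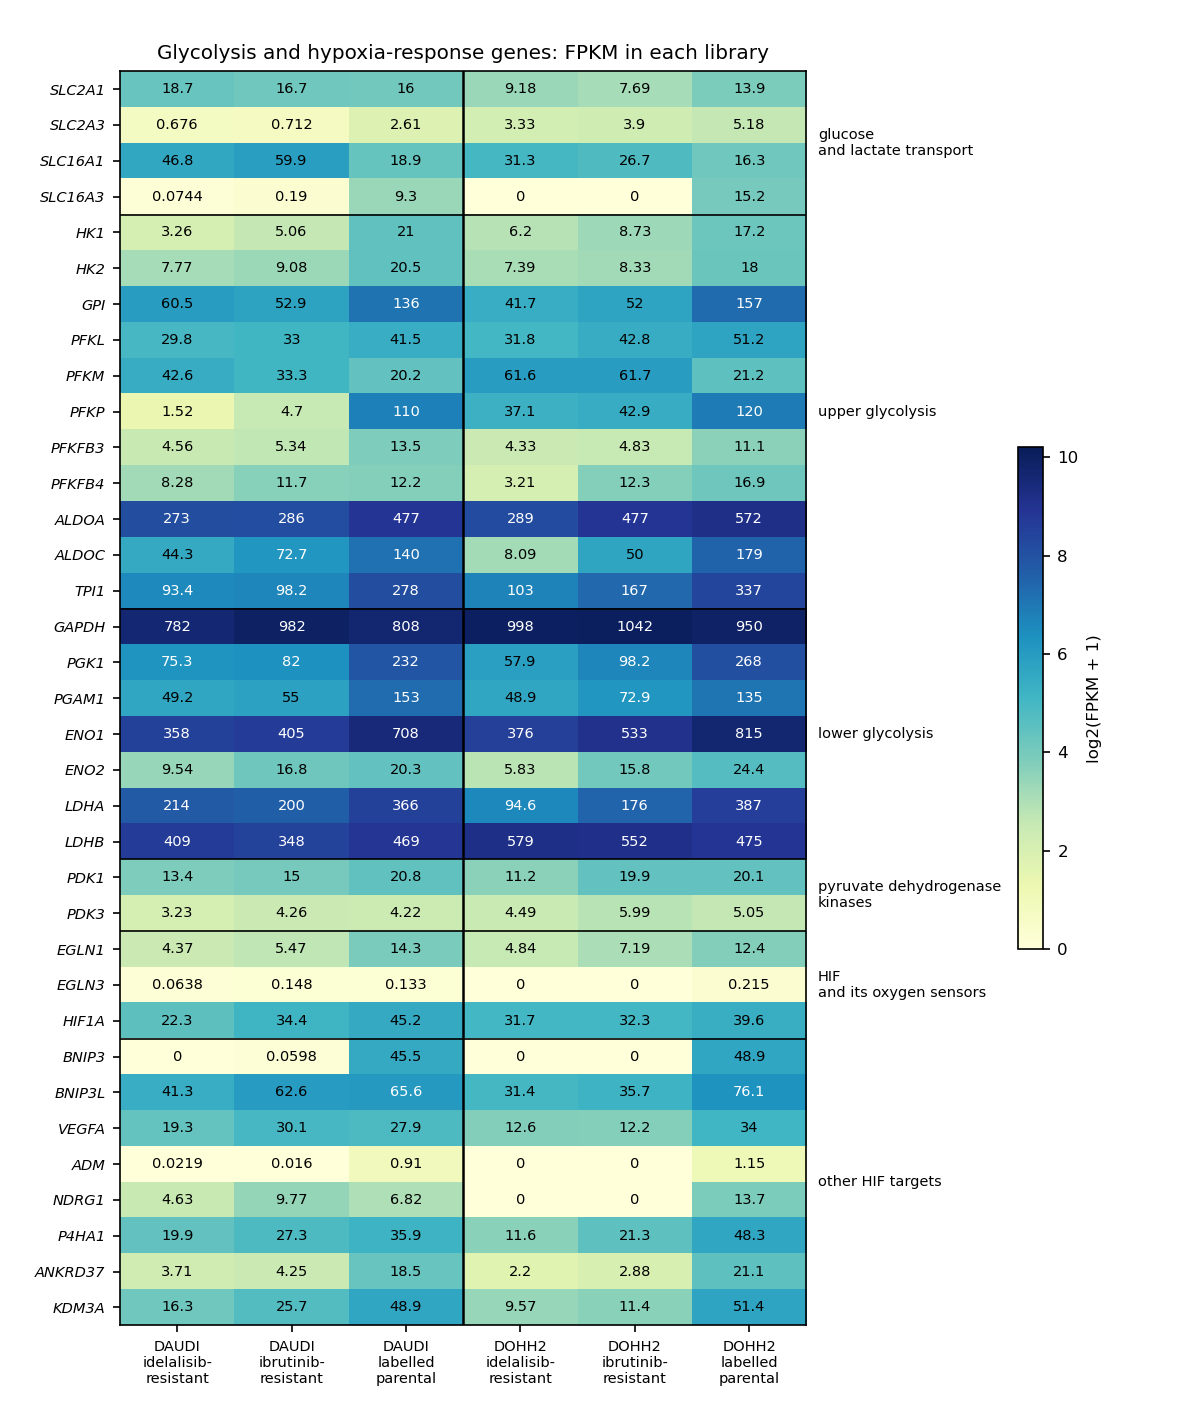
FPKM of the 35 genes in the 6 libraries, in rows by role; colour gives log2(FPKM + 1) and the number in each cell the FPKM. The columns labelled parental are darker than the resistant columns for most rows, and BNIP3 reads 45.5 and 48.9 there against 0.0598 or 0 in the resistant columns.

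Of the monocarboxylate transporter genes, SLC16A1 stood higher and SLC16A3 lower in the resistant libraries of both lines. Of the glucose transporter genes, SLC2A3 but not SLC2A1 stood lower in DAUDI, and both stood lower in DOHH2. Transport was not measured, only mRNA. SLC2A1, which encodes the widespread glucose transporter GLUT1, stood at 18.7 and 16.7 FPKM in idelalisib-resistant and ibrutinib-resistant DAUDI cells, against 16.0 FPKM labelled parental, and at 9.18 and 7.69 FPKM in resistant DOHH2, against 13.9 FPKM. These levels overlapped between resistant libraries and those labelled parental. SLC2A3, the gene of the high-affinity transporter GLUT3, stood at 0.676 and 0.712 FPKM in resistant DAUDI, against 2.61 FPKM labelled parental, and at 3.33 and 3.90 FPKM in resistant DOHH2, against 5.18 FPKM. SLC16A1 encodes the monocarboxylate transporter MCT1, which carries lactate either way. It stood at 46.8 and 59.9 FPKM in resistant DAUDI, against 18.9 FPKM labelled parental, and at 31.3 and 26.7 FPKM in resistant DOHH2, against 16.3 FPKM. All 4 resistant libraries were higher, without overlap, but limma gave adjusted p of 0.07 and 0.062 with idelalisib and ibrutinib resistance. SLC16A3 encodes MCT4, the lactate exporter of strongly glycolytic cells and a HIF target. It stood at 0.0744 and 0.190 FPKM in resistant DAUDI, against 9.30 FPKM labelled parental. Both resistant DOHH2 libraries had it listed at 0, against 15.2 FPKM. MCT1 mRNA therefore made up 99.7% to 100% of the summed FPKM of this pair in resistant libraries, against 67.0% and 51.8% in the DAUDI and DOHH2 libraries labelled parental. SLC16A3 passed the filter on low values only through the libraries labelled parental, so it had to stand lower in the resistant ones.

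The enzymes from glucose to triose phosphates stood lower for the most part, and the phosphofructokinase genes went in opposite directions. HK1 and HK2 encode the hexokinases that trap glucose in the cell. HK1 stood at 3.26 and 5.06 FPKM in idelalisib-resistant and ibrutinib-resistant DAUDI cells, against 21.0 FPKM labelled parental, and at 6.20 and 8.73 FPKM in resistant DOHH2, against 17.2 FPKM. HK2 stood at 7.77 and 9.08 FPKM in resistant DAUDI, against 20.5 FPKM, and at 7.39 and 8.33 FPKM in resistant DOHH2, against 18.0 FPKM. The HK2 values of the 4 resistant libraries lay close together, and it fell in limma by 1.24 with idelalisib (SE 0.166, adjusted p = 0.0202) and by 1.06 with ibrutinib resistance (SE 0.166, adjusted p = 0.0267). GPI, glucose phosphate isomerase, stood at 60.5 and 52.9 FPKM in resistant DAUDI, against 136 FPKM, and at 41.7 and 52.0 FPKM in resistant DOHH2, against 157 FPKM.

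Phosphofructokinase is the committed step of glycolysis, and its subunits come from PFKL, PFKM and PFKP, named after liver, muscle and platelets. PFKP (hg19 chr10:3109712-3178997) stood at 1.52 and 4.70 FPKM in idelalisib-resistant and ibrutinib-resistant DAUDI cells, against 110.0 FPKM labelled parental. In resistant DOHH2 it stood at 37.1 and 42.9 FPKM, against 119.6 FPKM. PFKM stood at 42.6 and 33.3 FPKM in resistant DAUDI, against 20.2 FPKM, and at 61.6 and 61.7 FPKM in resistant DOHH2, against 21.2 FPKM. PFKP was thus lowest in DAUDI and PFKM higher in all 4 resistant libraries, by 0.70 to 1.50 on the log2 scale. PFKM rose in limma with idelalisib resistance (1.27, SE 0.247, adjusted p = 0.0408), a call that is lost without the block on cell line or with the median of ratios as scaling, and gave adjusted p = 0.0538 with ibrutinib resistance. PFKP, whose difference varied from -1.46 to -5.46, had an adjusted p of 0.0831 with idelalisib resistance in limma. PFKL stood at 29.8 to 42.8 FPKM in the resistant libraries and at 41.5 and 51.2 FPKM in the DAUDI and DOHH2 libraries labelled parental.

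PFKFB3 and PFKFB4 make and remove the fructose bisphosphate that activates phosphofructokinase, and both are HIF targets. PFKFB3 stood at 4.56 and 5.34 FPKM in idelalisib-resistant and ibrutinib-resistant DAUDI cells, against 13.5 FPKM labelled parental, and at 4.33 and 4.83 FPKM in resistant DOHH2, against 11.1 FPKM. PFKFB4 stood at 8.28 and 11.7 FPKM in resistant DAUDI, against 12.2 FPKM, and at 3.21 and 12.3 FPKM in resistant DOHH2, against 16.9 FPKM. PFKFB3 was low in all 4 resistant libraries, whereas only the idelalisib-resistant DOHH2 library was counted as low for PFKFB4.

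Aldolase and triose phosphate isomerase end this stage. ALDOA, the main aldolase gene here, stood at 273 and 286 FPKM in idelalisib-resistant and ibrutinib-resistant DAUDI cells, against 477 FPKM labelled parental, and at 289 and 477 FPKM in resistant DOHH2, against 572 FPKM. ALDOC, the brain-type aldolase and a HIF target, stood at 44.3 and 72.7 FPKM in resistant DAUDI, against 139.9 FPKM, and at 8.09 and 50.0 FPKM in resistant DOHH2, against 179 FPKM. TPI1 stood at 93.4 and 98.2 FPKM in resistant DAUDI, against 278 FPKM, and at 103 and 167 FPKM in resistant DOHH2, against 337 FPKM. In each of these 3 genes the idelalisib-resistant DOHH2 library was well below the ibrutinib-resistant one, and in ALDOC it was the lowest of all. TPI1 fell in limma by 1.63 with idelalisib (SE 0.213, adjusted p = 0.0195) and by 1.25 with ibrutinib resistance (SE 0.213, adjusted p = 0.0312).

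From glyceraldehyde phosphate to lactate, PGK1, PGAM1, ENO1 and LDHA stood lower in all 4 resistant libraries, GAPDH lay near the libraries labelled parental and LDHB was lower in DAUDI but not in DOHH2. PGK1 (hg19 chrX:77359666-77382324) makes the first ATP of the pathway. It stood at 75.3 and 82.0 FPKM in idelalisib-resistant and ibrutinib-resistant DAUDI cells, against 232 FPKM labelled parental, and at 57.9 and 98.2 FPKM in resistant DOHH2, against 268 FPKM. PGK1 fell in limma by 1.90 with idelalisib (SE 0.222, adjusted p = 0.0162) and by 1.47 with ibrutinib resistance (SE 0.222, adjusted p = 0.0252). The mutase gene PGAM1 stood at 49.2 and 55.0 FPKM in resistant DAUDI, against 153 FPKM, and at 48.9 and 72.9 FPKM in resistant DOHH2, against 135 FPKM. GAPDH, the dehydrogenase between triose phosphate isomerase and PGK1, stood at 782 and 982 FPKM in resistant DAUDI, against 808 FPKM, and at 998 and 1042 FPKM in resistant DOHH2, against 949.9 FPKM. Its 4 differences ran from -0.05 to 0.28, so the step with the highest mRNA of the pathway lay level in all libraries while its neighbours stood lower.

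Both enolase genes stood lower in all 4 resistant libraries, while the lactate dehydrogenase genes differed from each other. ENO1, the common enolase gene, stood at 358 and 405 FPKM in idelalisib-resistant and ibrutinib-resistant DAUDI cells, against 708 FPKM labelled parental, and at 376 and 533 FPKM in resistant DOHH2, against 815 FPKM. ENO2, the neuronal enolase and a HIF target, stood at 9.54 and 16.8 FPKM in resistant DAUDI, against 20.3 FPKM, and at 5.83 and 15.8 FPKM in resistant DOHH2, against 24.4 FPKM. For both enolase genes the idelalisib-resistant libraries were the lowest of their line. LDHA, the HIF-driven subunit that favours lactate formation, stood at 214 and 199.8 FPKM in resistant DAUDI, against 366 FPKM, and at 94.6 and 176 FPKM in resistant DOHH2, against 387 FPKM. LDHB, the subunit that favours pyruvate formation, stood at 409 and 348 FPKM in resistant DAUDI, against 469 FPKM, and at 579 and 552 FPKM in resistant DOHH2, against 475 FPKM. LDHA was lower in all 4 resistant libraries, and LDHB was lower in DAUDI and higher in DOHH2, by less than 0.5 each way.

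Summed over the 18 enzymes, glycolytic mRNA stood at 2467 and 2701 FPKM in idelalisib-resistant and ibrutinib-resistant DAUDI cells, against 4026 FPKM labelled parental, and at 2752 and 3418 FPKM in resistant DOHH2, against 4554 FPKM. Its share of all FPKM of genes with an isoform of 300 nt or more was 0.795% and 0.75% in resistant DAUDI, against 1.32%, and 0.867% and 1.085% in resistant DOHH2, against 1.43%. Pyruvate kinase is not among the 35 genes. Its gene PKM stood at 233 and 249 FPKM in resistant DAUDI, against 639.6 FPKM, and at 221 and 334 FPKM in resistant DOHH2, against 706 FPKM. Of 10 measured glycolytic enzymes outside the 35, 5 and 5 were lower and 1 and 1 higher in DAUDI with idelalisib and ibrutinib resistance, and 3 and 2 were lower and 2 and 2 higher in DOHH2. Over all genes the shares were 15.8% and 14.6% lower and 15.3% and 20.2% higher in DAUDI, and 15.7% and 15.7% lower and 16% and 14.9% higher in DOHH2, so the counts in DOHH2 were near the background.

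The pyruvate dehydrogenase kinases, which shut pyruvate out of the mitochondrial oxidation route, differed little. PDK1, a HIF target, stood at 13.4 and 15.0 FPKM in idelalisib-resistant and ibrutinib-resistant DAUDI cells, against 20.8 FPKM labelled parental, and at 11.2 and 19.9 FPKM in resistant DOHH2, against 20.1 FPKM. PDK3 lay between 3.23 and 5.99 FPKM in all 6 libraries. Neither was counted in any comparison with the libraries labelled parental.

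Of the oxygen sensing genes, EGLN1 stood lower, and HIF1A did so by at most 0.99 on the log2 scale. EGLN1, the main hydroxylase of HIF alpha and itself a HIF target, stood at 4.37 and 5.47 FPKM in idelalisib-resistant and ibrutinib-resistant DAUDI cells, against 14.3 FPKM labelled parental, and at 4.84 and 7.19 FPKM in resistant DOHH2, against 12.4 FPKM. It fell in limma with idelalisib resistance (by 1.35, SE 0.219, adjusted p = 0.0288) and gave adjusted p = 0.0537 with ibrutinib resistance. HIF1A stood at 22.3 and 34.4 FPKM in resistant DAUDI, against 45.2 FPKM, and at 31.7 and 32.3 FPKM in resistant DOHH2, against 39.6 FPKM. HIF is controlled mainly through its protein, which was not measured. EGLN3, a further hydroxylase gene, was at most at 0.215 FPKM in any library and was listed at 0 in both resistant DOHH2 libraries.

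Among the 8 other HIF targets, all 8 were counted as lower in both resistant DOHH2 libraries, while 3 and 2 were in DAUDI with idelalisib and ibrutinib resistance, against 15.7% of all genes in each DOHH2 comparison and 15.8% and 14.6% in DAUDI. Without BNIP3 and ADM, which had to stand lower, it was 6 of 6 in both resistant DOHH2 libraries and 2 and 1 of 6 in DAUDI. The difference between the lines in these counts was not tested. BNIP3 (hg19 chr10:133781204-133795435), a mitophagy receptor, was listed at 0 in the idelalisib-resistant and stood at 0.0598 FPKM in the ibrutinib-resistant DAUDI library, against 45.5 FPKM labelled parental. It was listed at 0 in both resistant DOHH2 libraries, against 48.9 FPKM. BNIP3L, a related mitophagy receptor, stood at 41.3 and 62.6 FPKM in resistant DAUDI, against 65.6 FPKM, and at 31.4 and 35.7 FPKM in resistant DOHH2, against 76.1 FPKM. BNIP3L mRNA was therefore present in all libraries in which BNIP3 was at or near 0. ADM, which encodes the vasodilator peptide adrenomedullin, stood at 0.0219 and 0.0160 FPKM in resistant DAUDI and was listed at 0 in resistant DOHH2, against 0.910 and 1.15 FPKM in the DAUDI and DOHH2 libraries labelled parental.

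ANKRD37, an ankyrin repeat gene, stood at 3.71 and 4.25 FPKM in idelalisib-resistant and ibrutinib-resistant DAUDI cells, against 18.5 FPKM labelled parental, and at 2.20 and 2.88 FPKM in resistant DOHH2, against 21.1 FPKM. It fell in limma by 2.42 with idelalisib (SE 0.267, adjusted p = 0.015) and by 2.20 with ibrutinib resistance (SE 0.267, adjusted p = 0.0178). KDM3A, a histone demethylase gene, stood at 16.3 and 25.7 FPKM in resistant DAUDI, against 48.9 FPKM, and at 9.57 and 11.4 FPKM in resistant DOHH2, against 51.4 FPKM. The collagen hydroxylase gene P4HA1 stood at 19.9 and 27.3 FPKM in resistant DAUDI, against 35.9 FPKM, and at 11.6 and 21.3 FPKM in resistant DOHH2, against 48.3 FPKM. For KDM3A and P4HA1 the resistant DOHH2 libraries lay further below the library labelled parental than the resistant DAUDI libraries did.

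VEGFA, the gene of the main angiogenic growth factor, stood at 19.3 and 30.1 FPKM in idelalisib-resistant and ibrutinib-resistant DAUDI cells, against 27.9 FPKM labelled parental, and at 12.6 and 12.2 FPKM in resistant DOHH2, against 34.0 FPKM. NDRG1, a stress-induced gene, stood at 4.63 and 9.77 FPKM in resistant DAUDI, against 6.82 FPKM, and was listed at 0 in both resistant DOHH2 libraries, against 13.7 FPKM. Resistant and labelled parental levels of both genes overlapped in DAUDI and did not in DOHH2.

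**Figure D2:**
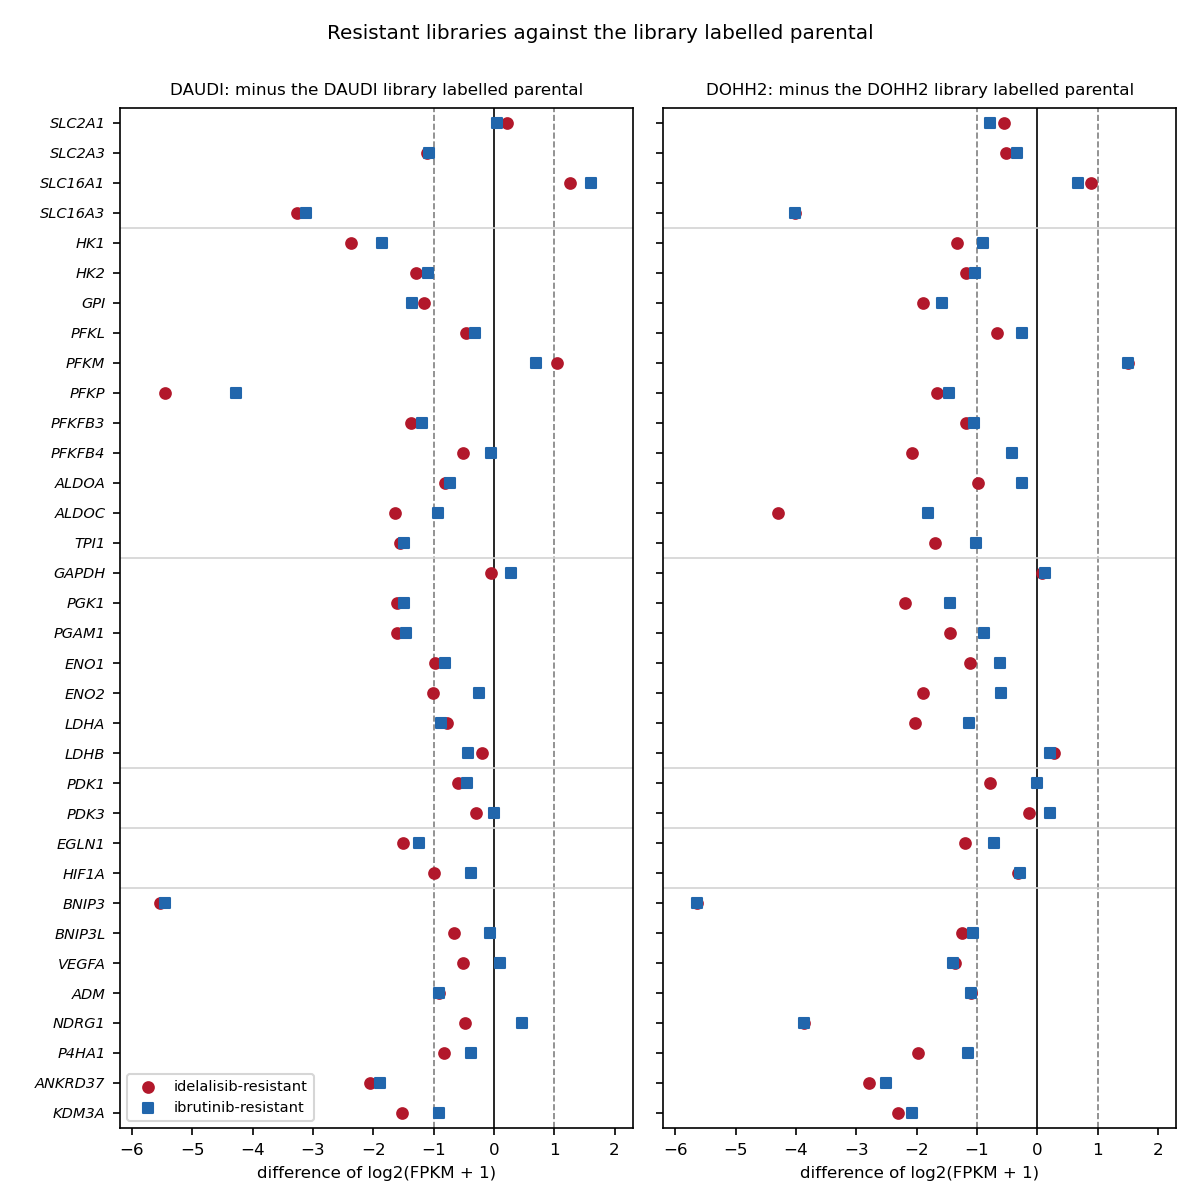
Difference of log2(FPKM + 1) between each resistant library and the library labelled parental of its line for the 34 genes, circles for idelalisib and squares for ibrutinib resistance; dashed lines mark a difference of 1. In DOHH2 23 circles and 17 squares lie at or left of -1; for BNIP3, SLC16A3, ADM and NDRG1 in DOHH2 and BNIP3 in DAUDI the resistant value is at or near a listed 0, so the plotted distance depends on the added 1.

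The mix of phosphofructokinase isozymes differed between resistant libraries and those labelled parental. PFKP made up 2.1% and 6.6% of the summed phosphofructokinase FPKM in idelalisib-resistant and ibrutinib-resistant DAUDI cells, against 64.1% labelled parental, and 28.4% and 29.1% in resistant DOHH2, against 62.3%. PFKM made up 57.6% and 46.9% in resistant DAUDI, against 11.8%, and 47.2% and 41.9% in resistant DOHH2, against 11.0%. The platelet form thus led in both libraries labelled parental and the muscle form in all 4 resistant ones. In ibrutinib-resistant DAUDI this lead was slight, with PFKL at 46.5%, against 46.9% for PFKM. Among lactate dehydrogenases LDHA held 34.4% and 36.5% in resistant DAUDI, against 43.9%, and 14.0% and 24.2% in resistant DOHH2, against 44.9%. Among aldolases ALDOC held 14.0% and 20.2% in resistant DAUDI, against 22.7%, and 2.7% and 9.5% in resistant DOHH2, against 23.8%. By the most abundant isoform of each gene alone, ALDOC held 25.7% and 36.4% in resistant DAUDI, against 33.5%, and 5.2% and 18.3% in resistant DOHH2, against 35.5%, so the ibrutinib-resistant DAUDI library then lay above the one labelled parental. BNIP3 held 0% and 0.095% of the BNIP3 pair in resistant DAUDI, against 40.9%, and 0% in both resistant DOHH2 libraries, against 39.1%. It passed the filter on low values only through the libraries labelled parental, so it had to stand lower in the resistant ones. For lactate dehydrogenases and aldolases the idelalisib-resistant DOHH2 library had the smallest share. HK1 held 29.6% and 35.8% of hexokinase FPKM in resistant DAUDI, against 50.6%, and 45.6% and 51.2% in resistant DOHH2, against 48.8%. In 8 of the 11 families the same member led in all 6 libraries. Shares are taken within a library and do not depend on its scaling, but they have no replicates.

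**Figure D3:**
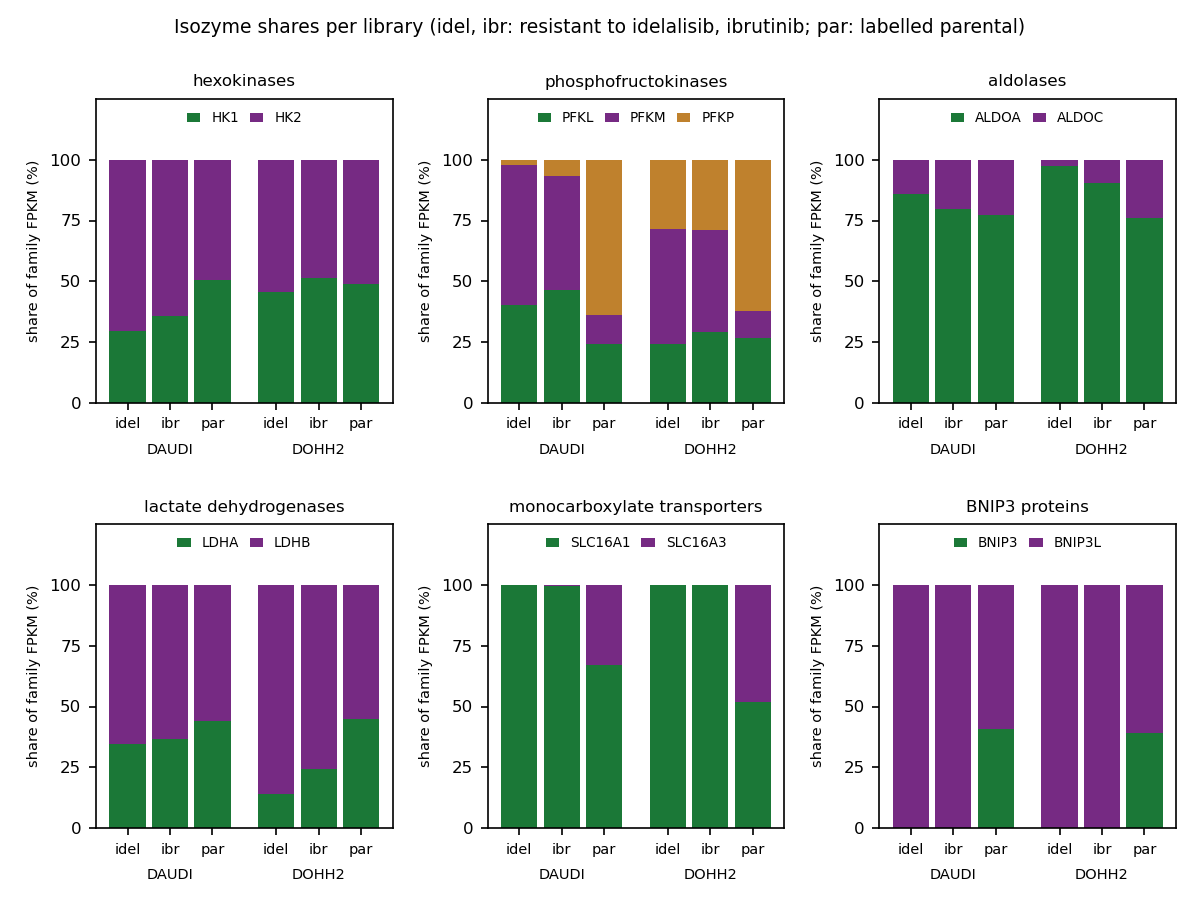
Share of each isozyme in the FPKM of its family (%), per library, for 6 families, resistant libraries left of the library labelled parental in each line. PFKP is 2.1% and 6.6% of the bar in the resistant DAUDI libraries, and SLC16A3 and BNIP3 are visible only in the libraries labelled parental. SLC16A3 and BNIP3 passed the filter on low values only through those libraries.

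Between the lines, most members stayed within a log2 difference of 1 in resistant DAUDI and DOHH2 cells, and PFKP, SLC2A3 and NDRG1 did so in neither resistant state. In the idelalisib-resistant libraries 4 members were higher and 2 lower in DAUDI than in DOHH2, against 9.53% and 9.14% of all genes. In the ibrutinib-resistant libraries 5 were higher and 2 lower, against 13.7% and 8.31% of all genes. With the libraries rescaled by the median of ratios or the upper quartile, 2 were higher and 3 lower with ibrutinib resistance, and the median over members was -0.10 and -0.11, against 0.02 as deposited. The members' counts were near these backgrounds. Between the DAUDI and DOHH2 libraries labelled parental, 0 members were higher and 0 lower, against 0.486% and 0.608% of all genes. PFKP and SLC2A3 were lower in DAUDI in both resistant states and NDRG1 was higher in both. PFKFB4, ALDOC and LDHA were higher in DAUDI only among idelalisib-resistant libraries by this count, and SLC2A1, SLC16A1, VEGFA and KDM3A only among ibrutinib-resistant ones, where SLC2A1, SLC16A1 and KDM3A were below 1 under both rescalings.

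In limma on the 4 resistant libraries, with drug as a block, 2 members were lower and 2 higher in DAUDI than in DOHH2 at an adjusted p under 0.05, against 7.04% and 8.48% of all genes. PFKP was lower by 3.43 (SE 0.322, adjusted p = 0.0239), and SLC2A3 was lower by a difference of -1.44 (SE 0.124, adjusted p = 0.0212). SLC2A1 was higher (0.99, SE 0.150, adjusted p = 0.0494), so the glucose transporter genes differed in opposite directions. SLC2A1 accordingly held 96.5% and 95.9% of the FPKM of this pair in idelalisib-resistant and ibrutinib-resistant DAUDI cells, and 73.4% and 66.4% in those of DOHH2. NDRG1 also passed (adjusted p = 0.0264), with a listed 0 in both DOHH2 libraries. The fit has 1 residual degree of freedom, and with all 6 libraries in it 0 members and 0 genes passed limma, while 4 members and 930 genes were at an unadjusted p under 0.05.

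Between the drugs, the idelalisib-resistant DOHH2 library held less glycolytic mRNA than the ibrutinib-resistant one, along most of the chain. By a difference of 1 or more, 3 members were lower and 0 higher, against 0.665% and 0.413% of all genes. ALDOC stood at 8.09 FPKM with idelalisib and 50.0 FPKM with ibrutinib resistance, a ratio of 0.162. PFKFB4 stood at 3.21 and 12.3 FPKM, a ratio of 0.261. ENO2 stood at 5.83 and 15.8 FPKM, a ratio of 0.368. By a difference of 0.5 or more, a threshold added after the values were seen, 11 members were lower and 0 higher, against 2.76% and 2.08% of all genes. Besides the 3 named they were ALDOA, TPI1, PGK1, PGAM1, ENO1, LDHA, PDK1 and P4HA1, with ratios of 0.536 for LDHA to 0.705 for ENO1.

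Of the 18 glycolytic enzymes, 17 lay below 0 in this comparison of DOHH2 libraries and only LDHB above, with a median of -0.47, while 39.3% of all genes lay below 0 and their median was 0.02. With the libraries rescaled by the median of ratios or the upper quartile, 12 members were lower by 0.5 or more, against 3.17% and 3.14% of all genes. Relative coverage per FPKM was 0.975 with idelalisib and 0.936 with ibrutinib resistance in DOHH2, while absolute depth is unknown. The part of depth in these differences was not tested. PKM stood at 221 and 334 FPKM. Some HIF targets differed by less than 0.5. VEGFA stood at 12.6 FPKM with idelalisib and 12.2 FPKM with ibrutinib resistance, and KDM3A at 9.57 and 11.4 FPKM. HIF1A itself stood at 31.7 and 32.3 FPKM. The sum of the 18 enzymes was 2752 and 3418 FPKM. Of 9 measured genes of the pentose phosphate pathway and fructose bisphosphatases, 8 lay above 0, with a median of 0.29.

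In DAUDI the members' count between the drugs was near the background by a difference of 1 or more. The count of members lower by 0.5 or more stood above the background as deposited, but it fell with rescaling. By a difference of 1 or more, 1 member, PFKP, was lower with idelalisib than with ibrutinib resistance and 0 were higher, against 2.2% and 1.31% of all genes. By 0.5 or more, 9 were lower and 0 higher, against 13.4% and 3.38%. These were HK1, PFKP, ALDOC, ENO2, BNIP3L, VEGFA, NDRG1, HIF1A and KDM3A, of which ALDOC and ENO2 were also lower in DOHH2. In DAUDI 28 of 34 members lay below 0, but so did 70% of all genes, and the ibrutinib-resistant DAUDI library had 1.42 times the coverage per FPKM of the library labelled parental, against 1.04 in the idelalisib-resistant one. With the libraries rescaled by the median of ratios, 21 members lay below 0, against 53.2% of all genes. By 0.5 or more, 4 were then lower and 1 higher, against 7.52% and 5.35% of all genes. LDHA, lower in DOHH2, stood at 214 and 199.8 FPKM in idelalisib-resistant and ibrutinib-resistant DAUDI, and PGK1 at 75.3 and 82.0 FPKM.

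Over both lines, limma found 0 members and 0 genes lower or higher between idelalisib-resistant and ibrutinib-resistant libraries, that is 0% of all genes in each direction. At an unadjusted p under 0.05 there were 212 genes and 2 members, ENO2 and P4HA1, both lower in both lines. Their unadjusted p in limma was 0.0193 and 0.0375. Whether the DOHH2 and DAUDI differences between the drugs differ from each other was not tested, since each group is 1 library.

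**Figure D4:**
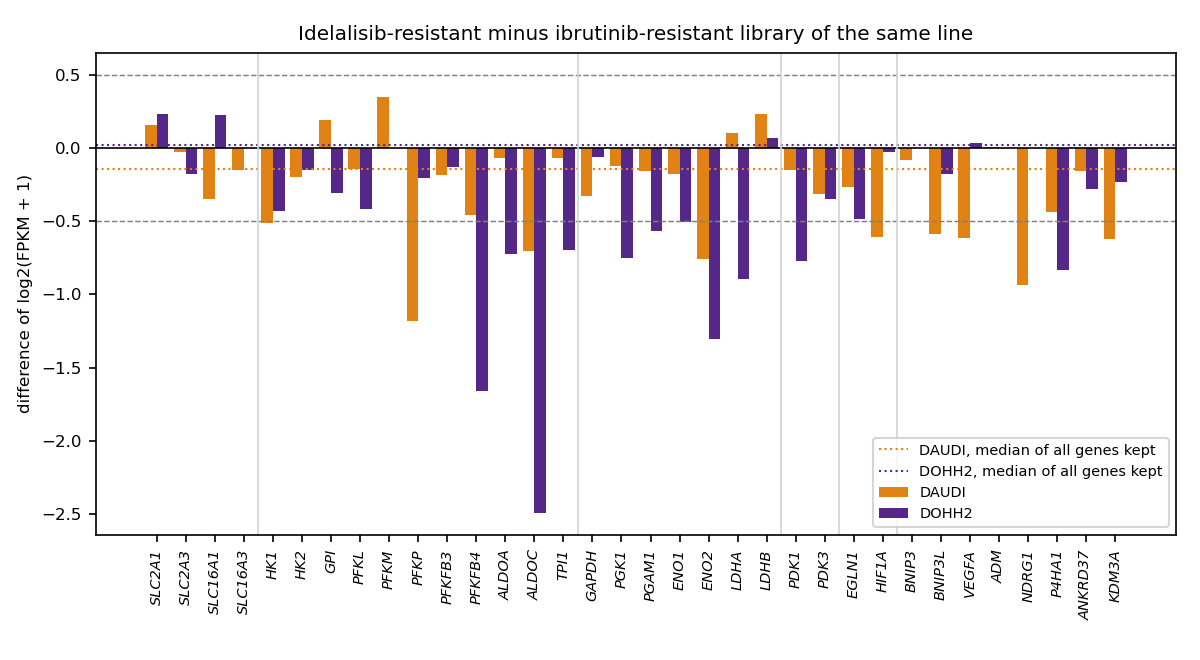
Difference of log2(FPKM + 1), idelalisib-resistant minus ibrutinib-resistant library, for the 34 genes in DAUDI and DOHH2; dotted lines give the median of all genes and dashed lines a difference of 0.5. In DOHH2 the bars of 11 genes reach -0.5 or below, led by ALDOC at -2.49 and PFKFB4 at -1.66, and in DAUDI PFKP is lowest at -1.18.

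Members with more than 1 isoform and at 10 FPKM or more in both libraries numbered 15 or 16 in each comparison with a library labelled parental. Among them only VEGFA had an isoform whose share differed by 20 percentage points or more. The same count over all genes was not made, so how common such a difference is remains unknown. Its RefSeq isoform of 3538 nt held 28.5% and 38.4% of VEGFA FPKM in the idelalisib-resistant and ibrutinib-resistant DOHH2 libraries, against 66.3% labelled parental, and 49.0% and 39.8% in resistant DAUDI, against 54.8%. The isoform of 3406 nt held 64.8% and 60.8% in resistant DOHH2, against 27.6%, and 42.4% and 51.7% in resistant DAUDI, against 34.2%. The shorter isoform thus led in 3 of the 4 resistant libraries. ALDOA stayed under 20 points, but its leading isoform was another one in the idelalisib-resistant libraries than in those labelled parental. Its isoform of 1579 nt held 40.3% and 44.3% of ALDOA FPKM in resistant DAUDI, against 58.3%, and 37.8% and 46.9% in resistant DOHH2, against 56.9%. The isoform of 1551 nt held 47.0% and 44.3% in resistant DAUDI, against 31.5%, and 50.9% and 42.9% in resistant DOHH2, against 34.7%. It led in both idelalisib-resistant libraries and was level with the isoform of 1579 nt in ibrutinib-resistant DAUDI. Such isoforms overlap over most of their length, and their split rests on the estimate of the authors' tool.

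Genes around the 35 were followed in lists chosen with earlier results known. For each count below, the shares of all genes were 15.8% and 14.6% lower and 15.3% and 20.2% higher with idelalisib and ibrutinib resistance in DAUDI, and 15.7% and 15.7% lower and 16% and 14.9% higher in DOHH2. Of 30 measured other hypoxia-induced genes, 14 and 11 were lower and 1 and 2 higher with idelalisib and ibrutinib resistance in DAUDI, and 14 and 12 were lower and 0 and 1 higher in DOHH2. BHLHE40, a hypoxia-induced repressor, stood at 0.00945 and 0.0414 FPKM in resistant DAUDI, against 53.9 FPKM labelled parental, and at 0.464 and 1.57 FPKM in resistant DOHH2, against 39.3 FPKM. The collagen hydroxylase gene P4HA2 stood at 0.132 and 0.172 FPKM in resistant DAUDI, against 14.7 FPKM, and at 0.128 and 0.135 FPKM in resistant DOHH2, against 22.6 FPKM. P4HA2 passed the filter on low values only through the libraries labelled parental, so it had to stand lower. How many other hypoxia-induced genes of this list did so was not counted, so the counts of lower genes may hold more of them. Of 14 measured HIF pathway regulators, 2 and 1 were lower and 0 and 3 higher in DAUDI with idelalisib and ibrutinib resistance, and 2 and 3 were lower and 0 higher in DOHH2, so the counts of lower genes were near those shares. EGLN2, a further HIF hydroxylase, stood at 13.5 and 16.2 FPKM in resistant DAUDI, against 33.4 FPKM, and at 10.7 and 10.9 FPKM in resistant DOHH2, against 35.2 FPKM. VHL, the ubiquitin ligase subunit that takes HIF alpha to destruction, stood at 40.2 and 45.2 FPKM in resistant DAUDI, against 19.9 FPKM, and at 36.7 and 34.0 FPKM in resistant DOHH2, against 20.5 FPKM. EPAS1, the gene of another HIF alpha subunit, was at 0.0278 FPKM or less in all libraries.

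Further lists covered routes that branch from or follow glycolysis. Of 9 measured genes of the pentose phosphate pathway and fructose bisphosphatases, 4 and 3 were higher with idelalisib and ibrutinib resistance in DAUDI and 4 and 3 in DOHH2, with 0 lower, while 3 of the 9 lay below 0 in each comparison. The transketolase gene TKT stood at 268 and 287 FPKM in resistant DAUDI, against 109 FPKM labelled parental, and at 380.3 and 309 FPKM in resistant DOHH2, against 99.5 FPKM. Of 11 measured other hexose and monocarboxylate transporters, 3 and 4 were higher and 1 and 1 lower in DAUDI, and 3 and 3 were higher and 2 and 2 lower in DOHH2. MPC1, a subunit of the carrier that brings pyruvate into mitochondria, stood at 22.1 and 45.2 FPKM in resistant DAUDI, against 2.49 FPKM, and at 23.2 and 20.2 FPKM in resistant DOHH2, against 3.80 FPKM. Of 9 measured pyruvate dehydrogenase genes, 0 and 2 were higher in DAUDI and 2 and 2 in DOHH2, with 0 lower, near the shares of all genes that were higher. Of 14 mitochondrial and mitophagy genes, 1 and 1 were higher in DAUDI and 1 and 1 lower in DOHH2. All of these were the mitophagy kinase gene PINK1, at 13.6 and 22.0 FPKM in resistant DAUDI, against 3.56 FPKM, and at 0.385 and 1.03 FPKM in resistant DOHH2, against 3.85 FPKM.

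Some levels carry a limit of read assignment. GENCODE names pseudogenes after 15 of the 35 genes, among them 62 after GAPDH, 39 after BNIP3, 13 after PGAM1 and 6 after LDHA. How reads that fit several copies were split is not given in the sources used here, so the levels of these genes are uncertain to that extent.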

How the data were processed

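The deposited tables list FPKM per RefSeq isoform for 43490 isoforms in each of 6 polyA libraries, made per the labels' protocols with a directional kit. The submitters' processing notes name bcl2fastq, cutadapt, TopHat2 and Cufflinks and the build hg19, without versions. The deposited coverage signal was used only for relative depth, which was 0.936 to 1.42 of the DAUDI library labelled parental. Counts were not used, so absolute depth is unknown and no intervals are given.

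For each gene symbol the FPKM of its isoforms were added up. Left out were 528 isoforms without a gene name and 10 genes marked failed, with no member among them. Genes at 1 FPKM or more in any library were kept, and log2(FPKM + 1) was compared, which understates differences of low genes. limma 3.58.1 (R 4.3.3, empirical Bayes with trend, two-sided) was fitted to all 6 libraries with line and state (2 residual degrees of freedom, median SE 0.24). It was also fitted to the 4 resistant libraries with line and drug (1 residual degree of freedom, median SE 0.172). A run on simulated data used the same spread for every gene, unlike these data, so it does not bear on the p-values. Contrasts are resistant minus labelled parental, DAUDI minus DOHH2 and idelalisib minus ibrutinib.

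The members and lists were chosen with earlier results of these data known. All members may be named, and of each other list up to 4 genes with the largest differences, besides PKM and core HIF regulators. Positions are of hg19, promoters of GRCh38.p14. Other pseudocounts, filters, scalings, fits and left-out libraries were tried.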

Additional observations from a re-analysis of the deposited data

How the results depend on the processing

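No single member counted or called as lower or higher changed direction under the alternatives run. The balance of counts did turn between the lines with ibrutinib resistance. There 2 lower and 5 higher in DAUDI became 3 lower and 2 higher under both rescalings, and the median over members went from 0.02 to -0.10 and -0.11. The count of members lower than in the libraries labelled parental stayed within 1.5 times under every pseudocount, filter and scaling tried, and against the library labelled parental of the other line, an alternative added after seeing the data (21 and 14 lower with idelalisib and ibrutinib resistance in DAUDI, 21 and 15 in DOHH2). The count of members higher with idelalisib resistance in DAUDI was 1 with a pseudocount of 5, with the median of ratios or against the other line's library. Rescaling by the median of ratios moved the all-gene median of ibrutinib-resistant DAUDI to -0.02, where 17 members were lower.

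Between the drugs in DAUDI, 2 members were lower with a pseudocount of 0.1 and 0 with 5, and under both rescalings 4 were lower and 1 higher by 0.5 or more. Between the lines, a pseudocount of 5 left 1 lower and 2 higher with idelalisib and 1 lower and 3 higher with ibrutinib resistance, and both rescalings left 2 higher with ibrutinib resistance.

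In limma, with no filter on low values, 5 members were lower and 0 higher with idelalisib and 5 lower with ibrutinib resistance, with 1403 genes called in each, and the line contrast had 0 lower, 0 higher and 0 genes. With the median of ratios or no cell line block, 0 members were higher with idelalisib resistance. The line contrast had 1 higher with a pseudocount of 5, and from all 6 libraries 0 lower, 0 higher and 0 genes. The drug contrast had 1 gene with a filter at 5 FPKM and from all 6 libraries. Leaving out 1 library each gave 0 to 14 members lower, 0 to 1 higher and 0 to 2860 genes with idelalisib, and 0 to 8 lower, 0 to 1 higher and 0 to 2926 genes with ibrutinib resistance. The low ends come from leaving out any resistant library. Leaving 1 out of the 4 resistant libraries left no residual degree of freedom. The labels carry no replicate numbers, and limma pairs libraries by cell line instead; without that block 15 members were lower with idelalisib and 11 with ibrutinib resistance. Without counts, how far depth limits genes near 0 is unknown.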
